A study of Mus musculus with 16 samples.

Results

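Macrophage and Kupffer cell marker genes were followed in liver and in eWAT, the labels' abbreviation for a white adipose tissue, of male mice with an obese or a control father. The 35 members were named by symbol, and 34 of them had a probe set annotated with that symbol alone, out of 19505 gene symbols in all. Cd68, the remaining member, was not analysed here. The libraries formed 4 groups of 4: liver F1, liver CT, eWAT F1 and eWAT CT. F1 offspring had an obese father, which from the age of 8 weeks had eaten, for 12 weeks, a high-fat diet of 45% lipid, and CT offspring had a father fed chow over the same time. All mothers were control females, and all offspring were C57BL/6J males, the common inbred strain, sampled at 14 weeks. The diet was given to the fathers, and what the offspring themselves ate is not given in the sources used here. Fathers, litters and cages are not given either, and animals of a group may share a litter. A p-value here therefore rests on the spread of 4 samples a group.

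Macrophages are phagocytes that live in nearly every tissue. Those of the liver, the Kupffer cells, sit in the sinusoids, clear particles and old red cells from the blood, and carry surface receptors such as Clec4f and Vsig4 that macrophages elsewhere mostly lack. Adipose tissue holds resident macrophages that carry Mrc1, Cd163, Lyve1 and Folr2, and, in obesity, lipid-filled macrophages around dying fat cells that carry Trem2, Gpnmb, Itgax and Lgals3. Both lineages need signals through the receptor Csf1r and the transcription factor PU.1, the product of Spi1. Following this textbook knowledge, the measured members were set in 3 groups: 5 Kupffer-associated members, 9 adipose resident or lipid-associated members and 20 shared members. Members and groups were chosen with earlier results of these data known, so their counts are a description and not an independent test.

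Values are the authors' deposited log2 expression values, on which a difference of 1 is a doubling. The tissue labels were checked on a pair of genes chosen after their values had been seen. Alb, the hepatocyte gene for serum albumin, read 19.93 in every liver library and from 12.43 to 19.07 in eWAT. Adipoq, the fat-cell gene for adiponectin, read 3.45 to 4.25 in liver and 18.95 to 19.24 in eWAT. The 12-gene hepatocyte list had a median of 11.02 to 15.37 per library in eWAT F1, against 7.13 to 13.77 in eWAT CT, and these ranges overlapped. The libraries that stood apart were liver F1 4, liver CT 2, eWAT F1 1 and eWAT CT 4. The main counts of members are given with and without them. In eWAT, a member's difference between F1 and CT is given both ways where leaving them out moved it by over 1.5 times. In liver and between the tissues this is done for some members only.

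All 5 Kupffer-associated members had a higher mean in liver than in eWAT in both kinds of offspring, and, with values as deposited, all but 1 of the other 29 had a lower one. Liver and eWAT libraries appeared to have been normalized separately, since sorted values differed by up to 0.2 within liver and 0.53 within eWAT but by 1.39 to 1.71 between the tissues. The median of all genes was -0.86 (liver minus eWAT) in F1 and -0.84 in CT offspring, and each tissue difference is to be read against that shift. In F1 offspring limma called 33 of 34 members, 6 higher and 27 lower, where 18% of all tested genes were called higher and 57.8% lower. In CT offspring it called 32 of 34, 5 higher and 27 lower, against 17.9% and 57.5% of all genes. The median member difference was -3.01 in F1 and -3.59 in CT offspring. A lower mean in liver was found for 28 of 34 members in each, where 71.4% of all genes in F1 and 71.7% in CT offspring had one. Of the members, 28 in F1 and 27 in CT offspring were lower at an unadjusted p under 0.05, against 58.8% and 58.4% of all genes. In each kind of offspring 26 members were lower in liver without overlap of the tissues, against 53.6% of all genes in F1 and 53.6% in CT offspring. Without the libraries that stood apart, 32 of 34 members were called in F1, against 71.5% of all genes. In CT offspring 33 of 34 were then called, against 73% of all genes. Among members whose mean reached the 25th percentile in both tissues, 29 of 30 were called in F1, against 75.5% of such genes. In CT offspring 31 of 32 of them were called, against 75.1%. Scaling the tissues to each other turned single members: after centring every library on its median, a lower mean was found for 25 members in F1 (42.9% of all genes) and 26 in CT offspring (44.1%). With that centring limma called 25 members lower in each, where 40.7% of all genes were called higher and 29.7% lower in F1, and 40% and 30.2% in CT offspring.

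Clec4f, a C-type lectin receptor used as a Kupffer cell marker in mice, had 10.71, 10.17, 10.75 and 10.4 in liver F1, against 3.09, 3.51, 3.14 and 4 in eWAT F1. In CT offspring Clec4f had 9.8, 9.4, 10.06 and 9.69 in liver, against 2.49, 3.27, 2.85 and 2.61 in eWAT. No liver library came near an eWAT library. Clec4f was dim in eWAT, with 2 of 4 F1 libraries and 4 of 4 CT libraries under 3.47, the 25th percentile of all eWAT values, so its tissue difference is a bound. Taking each dim library at that percentile, liver was at least 6.90 higher on the log2 scale in F1 and at least 6.27 higher in CT offspring. This bound is for values as deposited. Cd5l, a secreted scavenger-receptor-family protein of tissue macrophages, had 11.94, 11.96, 12.56 and 12 in liver F1, against 4.8, 5.13, 4.23 and 5.85 in eWAT F1. The corresponding CT values of Cd5l were 11.23, 12.95, 11.51 and 11.88 in liver, against 4.24, 4.34, 4.81 and 6.83 in eWAT. Liver was far above eWAT throughout, by 7.11 ± 0.31 (SE) in F1 and 6.84 ± 0.56 in CT offspring.

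Vsig4, a complement receptor with which Kupffer cells catch circulating bacteria, had 9.61, 9.39, 8.81 and 9.21 in liver F1 and 3.42, 5.16, 4.12 and 6.22 in eWAT F1. In CT offspring Vsig4 had 8.45, 9.21, 9.03 and 9.22 in liver and 4.6, 4.66, 5.39 and 5.45 in eWAT. The tissues did not overlap, and the Vsig4 difference was 4.53 ± 0.50 in F1 and 3.95 ± 0.26 in CT offspring. Timd4, a receptor for phosphatidylserine on dying cells, had 6.18, 6.31, 6.94 and 6.3 in liver F1 and 5.28, 5.47, 6.11 and 4.44 in eWAT F1. Its CT values were 6.08, 7.69, 6.05 and 6.56 in liver and 5.56, 6.22, 5.41 and 5.33 in eWAT. The smaller Timd4 difference, 1.11 ± 0.32 in F1 and 0.97 ± 0.36 in CT offspring, had an adjusted p of 0.00932 in F1 and 0.0312 in CT, and the CT tissues overlapped. Without liver CT 2 the CT value of Timd4 was 0.60, with an adjusted p of 0.0612, and without liver CT 2 and eWAT CT 4 it was 0.50 ± 0.27, with an adjusted p of 0.122.

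Marco, a scavenger receptor that binds bacteria, had 6.14, 6.41, 5.58 and 5.23 in liver F1 and 4.06, 4.58, 5.24 and 4.87 in eWAT F1. Its CT values were 6.2, 10.76, 6.02 and 5.76 in liver and 5.08, 5.43, 4.5 and 4.76 in eWAT. Liver CT 2 lay far above the other liver libraries, and in F1 offspring the tissues overlapped. The Marco difference was 1.15 ± 0.31 with an adjusted p of 0.00592 in F1 offspring, and 2.24 ± 0.94 with an adjusted p of 0.05003 in CT offspring, just short of the threshold of 0.05. Without liver CT 2 the CT difference was 1.05, with an adjusted p of 0.003995, and without liver CT 2 and eWAT CT 4 it was 0.99 ± 0.27, with an adjusted p of 0.00896.

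Msr1, scavenger receptor A, was the sixth member that was higher in liver, by 1.22 ± 0.20 in F1 and 0.60 ± 0.17 in CT offspring. Every adipose resident or lipid-associated member was lower in liver. Gpnmb, a membrane glycoprotein of lysosome-rich, lipid-laden macrophages, was dim in liver, with means of 3.77 in F1 and 3.76 in CT offspring under the liver line of 3.9. Taken at that line, the eWAT mean of Gpnmb was at least 9.17 higher in F1 and at least 10.89 higher in CT offspring on the log2 scale. This bound holds only for values as deposited. After median centring Gpnmb differed by -8.04 ± 0.60 in F1 and by -9.875 ± 0.60 in CT offspring, liver minus eWAT. Trem2 and Itgax were under the line in all 4 liver F1 libraries. Lgals3, which encodes the sugar-binding protein galectin-3, differed by -7.11 ± 0.37 in F1 and -7.91 ± 0.38 in CT offspring. Ccr2, the chemokine receptor that brings monocytes into tissue, differed by -6.62 ± 0.20 in F1 and -7.29 ± 0.17 in CT offspring. Aif1, an actin-binding protein of macrophages, was the member that passed in neither kind of offspring, with an adjusted p of 0.0521 in F1 and 0.140 in CT. Without liver CT 2 and eWAT CT 4 the CT value of Aif1 was -1.61 ± 0.46, with an adjusted p of 0.0110. The tissue direction of Fcgr1, Aif1 and Mertk depended on the scaling. Fcgr1 differed by -0.65 ± 0.25 in F1 as deposited, by 0.72 ± 0.25 with an adjusted p of 0.0239 after quantile normalization and by 0.61 ± 0.26 after median centring. Aif1 was likewise above 0 in both kinds of offspring under both scalings, while Mertk, at -1.19 ± 0.24 in F1 as deposited, was at 0.069 ± 0.25 after median centring.

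To separate restricted from shared markers without setting tissues against each other directly, each member was placed by its percentile within the same library. The percentile was taken over the 19505 gene symbols, each by its brightest probe set, and not over all probe sets. A probe set's brightness also depends on its sequence, so a percentile orders probe sets and not transcript amounts. With the 50th percentile as the line, a rule set after values had been seen, 5 members were above it in liver only, 7 in eWAT only, 21 in both tissues and 1 in neither. The liver-restricted members were the 5 Kupffer-associated ones. The eWAT-restricted members were Clec10a, Trem2, Gpnmb, Itgax, Lgals3, Ccr2 and Cd14, while Mrc1, Cd163, Lyve1 and Folr2 of the adipose group were above the line in liver too. Cx3cr1, the fractalkine receptor, was just outside the line at the 49.1 percentile in eWAT F1. Just inside it were Trem2 at 50.1 in eWAT F1 and Itgam, an integrin subunit of myeloid cells, at 50.1 in liver F1.

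**Figure D1:**
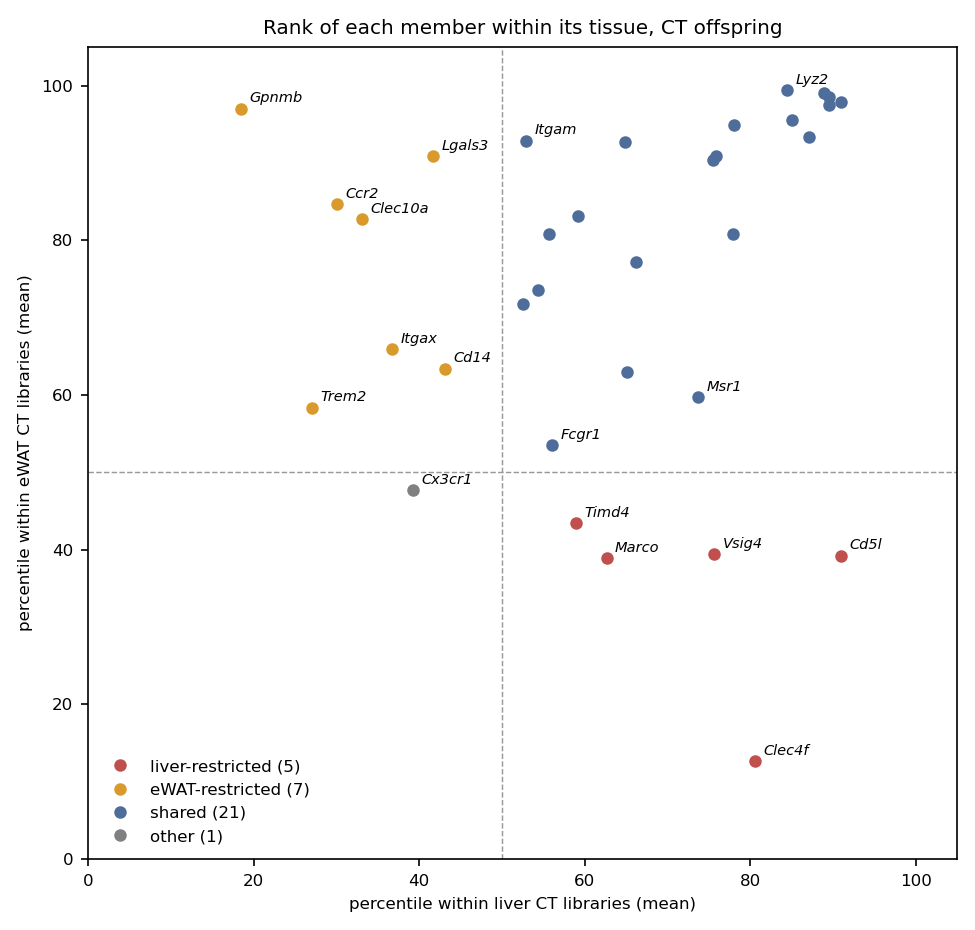
Percentile of each member among all gene symbols in CT offspring, liver on the x axis and eWAT on the y axis, each point the mean of 4 libraries, with dashed lines at the 50th percentile. The 5 Kupffer-associated members lie to the lower right and the 7 eWAT-restricted members to the upper left.

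In liver, no member passed the adjusted test between F1 and CT offspring. By limma 0 of 33 tested members were called, where 0.108% of 14772 genes were called higher and 0.0474% lower. Gpnmb was too dim to test in liver. At an unadjusted p under 0.05, 3 members were higher in F1 (4.46% of all genes) and 1 was lower (4.66%). Of the 33 members, 20 had a higher F1 mean (49.5% of all genes) and 13 a lower one (50%), with a median difference of 0.10 where the median of all genes was 0. In bulk tissue, fewer cells of a type and less RNA per cell cannot be told apart.

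Folr2, a folate receptor of resident macrophages, had 7.25, 7.4, 7.62 and 7.48 in liver F1, against 6.81, 6.71, 6.4 and 6.6 in liver CT. All 4 F1 libraries were above all 4 CT libraries. The difference was 0.81 ± 0.15 (SE), or 1.75-fold, with an unadjusted p of 0.000382 and an adjusted p of 0.104. Lyve1, a hyaluronan receptor carried by resident macrophages and also by lymphatic and liver sinusoidal endothelium, had 9.44, 8.79, 8.21 and 8.17 in liver F1, against 7.79, 6.8, 7.04 and 8.17 in liver CT. Its lowest F1 library equalled its highest CT library. The Lyve1 difference was 1.20 ± 0.36, with an adjusted p of 0.331. Of the 12-gene endothelium list, 4 genes were higher in liver F1 and 8 lower, with a median difference of -0.04.

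Clec4f was the Kupffer-associated member that was higher in F1 at an unadjusted p under 0.05. Its liver libraries, given above, did not overlap between the groups, and it differed by 0.77 ± 0.19 with an adjusted p of 0.235. Vsig4 differed by 0.28 ± 0.23 and Cd5l by 0.22 ± 0.34, with overlapping groups. Timd4 differed by -0.16 ± 0.35 and Marco by -1.35 ± 0.96, and in both the highest library was liver CT 2. Without liver CT 2, Timd4 was at 0.20 ± 0.23 and Marco at -0.15 ± 0.29. Without liver F1 4 as well, Timd4 was at 0.25 ± 0.26, Marco at 0.05 ± 0.25 and Cd5l at 0.61 ± 0.25. Itgax, the integrin subunit CD11c of dendritic cells and fat-tissue macrophages, had 3.84, 3.75, 3.68 and 3.63 in liver F1, against 3.9, 4.25, 5.11 and 4.51 in liver CT. It was lower in every F1 library than in any CT library, a difference of -0.72 ± 0.24 with an adjusted p of 0.390. All 4 of its F1 libraries were under 3.9, the 25th percentile of liver values.

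Groups that did not overlap were seen in 5 members, of which Folr2, Clec4f and Mertk were higher in F1 (2.68% of all genes) and Itgax and Fcgr3 lower (2.68%). Mertk, a receptor for taking up dying cells, had 9.63, 9.52, 10.3 and 9.56 in liver F1, against 8.85, 9.44, 9.45 and 9.5 in liver CT, a difference of 0.44 ± 0.22. Its groups were close, since the lowest F1 library had 9.52 and the highest CT library 9.5. Among resident-type members, Cd163, the receptor for haemoglobin bound to haptoglobin, differed by 0.60 ± 0.35 and Mrc1, the mannose receptor, by 0.05 ± 0.24, both with overlapping groups. Without liver F1 4 and liver CT 2, Cd163 was at 0.20 ± 0.30 and Mrc1 at -0.05 ± 0.29.

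Liver CT 2 held the highest liver value in 14 of 34 members, among them Adgre1, the F4/80 antigen, with 9.2, 8.82, 9.68 and 8.68 in liver F1, against 8.39, 10.94, 8.45 and 8.31 in liver CT. The receptor Csf1r had 12.22, 12.64, 12.04 and 12.01 in liver F1, against 11.58, 12.8, 11.54 and 11.67 in liver CT. In both genes liver CT 2 was above all other liver libraries, and the other 3 CT libraries were below every F1 library. Without liver CT 2, Adgre1, Cd5l, Clec4f, Csf1r, Folr2, Laptm5 and Lyve1 were higher at an unadjusted p under 0.05, 7 members in place of 3, against 3.93% of all genes. The members' median was then 0.20, and still 0 members were called. Without liver CT 4 there were 5 members. Liver F1 4 carried pancreatic transcripts, with a median of 11.8 over the 11-gene exocrine pancreas list, against 4.04 to 4.69 in the other liver F1 libraries. Without liver F1 4 there were 3 members higher and 1 lower, as with it. Without liver F1 4 and liver CT 2 there were 7 higher (4.04% of all genes) and 1 lower (3.85%), and 0 of 33 were called. In that fit Adgre1 was at 0.85 ± 0.24 in place of 0.07 ± 0.54, and Csf1r at 0.70 ± 0.21 in place of 0.33 ± 0.29. Itgam was at 0.21 ± 0.33 in place of -0.33 ± 0.41, and Aif1 at 0.04 ± 0.29 in place of -0.47 ± 0.53. Ctss became smaller, at 0.14 ± 0.19 in place of 0.31 ± 0.17.

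**Figure D2:**
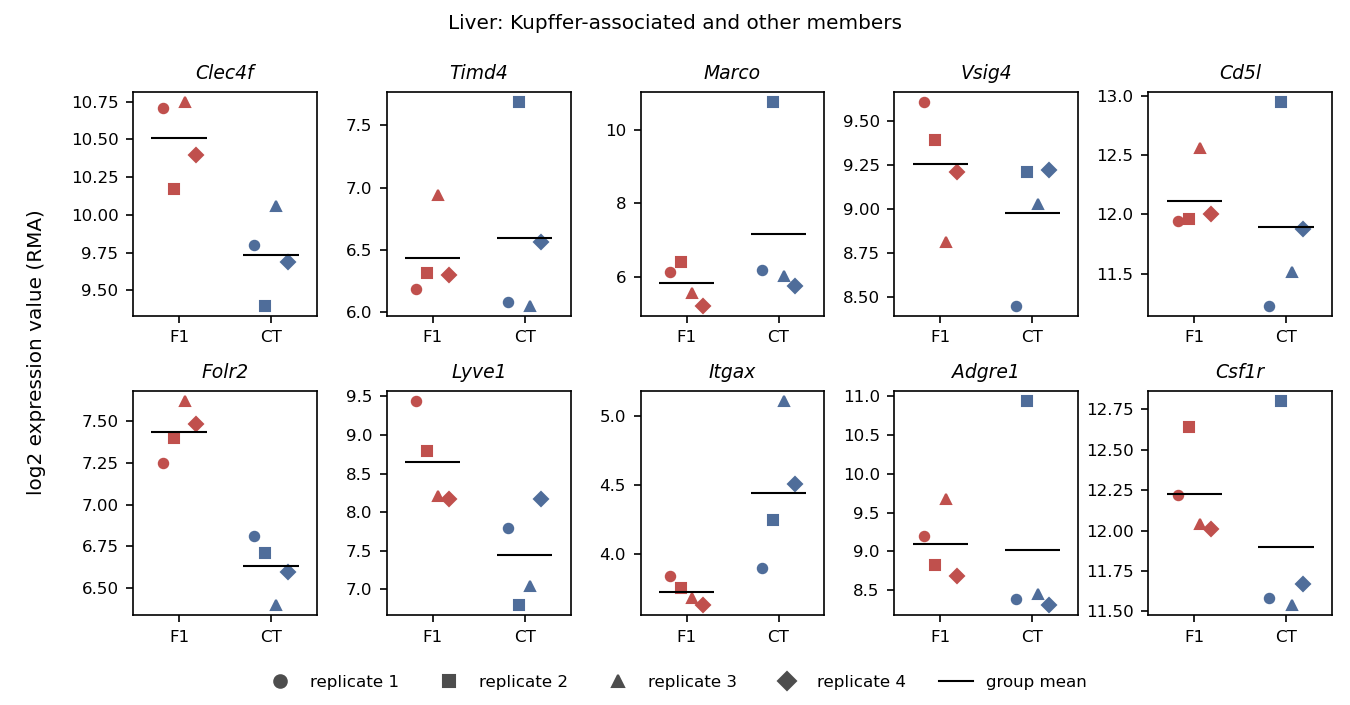
Log2 expression values per library in liver, F1 left of CT, for the 5 Kupffer-associated members and 5 others, with symbols for the replicate number and a line at the group mean. Folr2 and Clec4f separate the groups, and the square of liver CT 2 stands high in Marco, Timd4, Cd5l, Adgre1 and Csf1r.

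In eWAT, 29 of 33 tested members had a lower mean in F1 than in CT offspring, where 50.2% of all genes did, and 4 had a higher one (49.4%). No member passed the adjusted test, with 0 of 33 called by limma in either direction, as was 0% of 14775 genes. At an unadjusted p under 0.05, 13 members were lower in F1 (5.02% of all genes) and 0 were higher (4.97%). The median member difference was -0.49, where the median of all genes was near 0. Clec4f was too dim to test in eWAT. Without eWAT F1 1 and eWAT CT 4, which leaves 6 libraries, 3 members were lower at that threshold, and differences that this moved by over 1.5 times are given with each member. The groups did not overlap in 6 members that were lower, Fcer1g, Laptm5, Ccr2, Csf1r, Spi1 and Fcgr3 (3.01% of all genes), and in 1 that was higher, Cx3cr1 (2.91%).

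**Figure D3:**
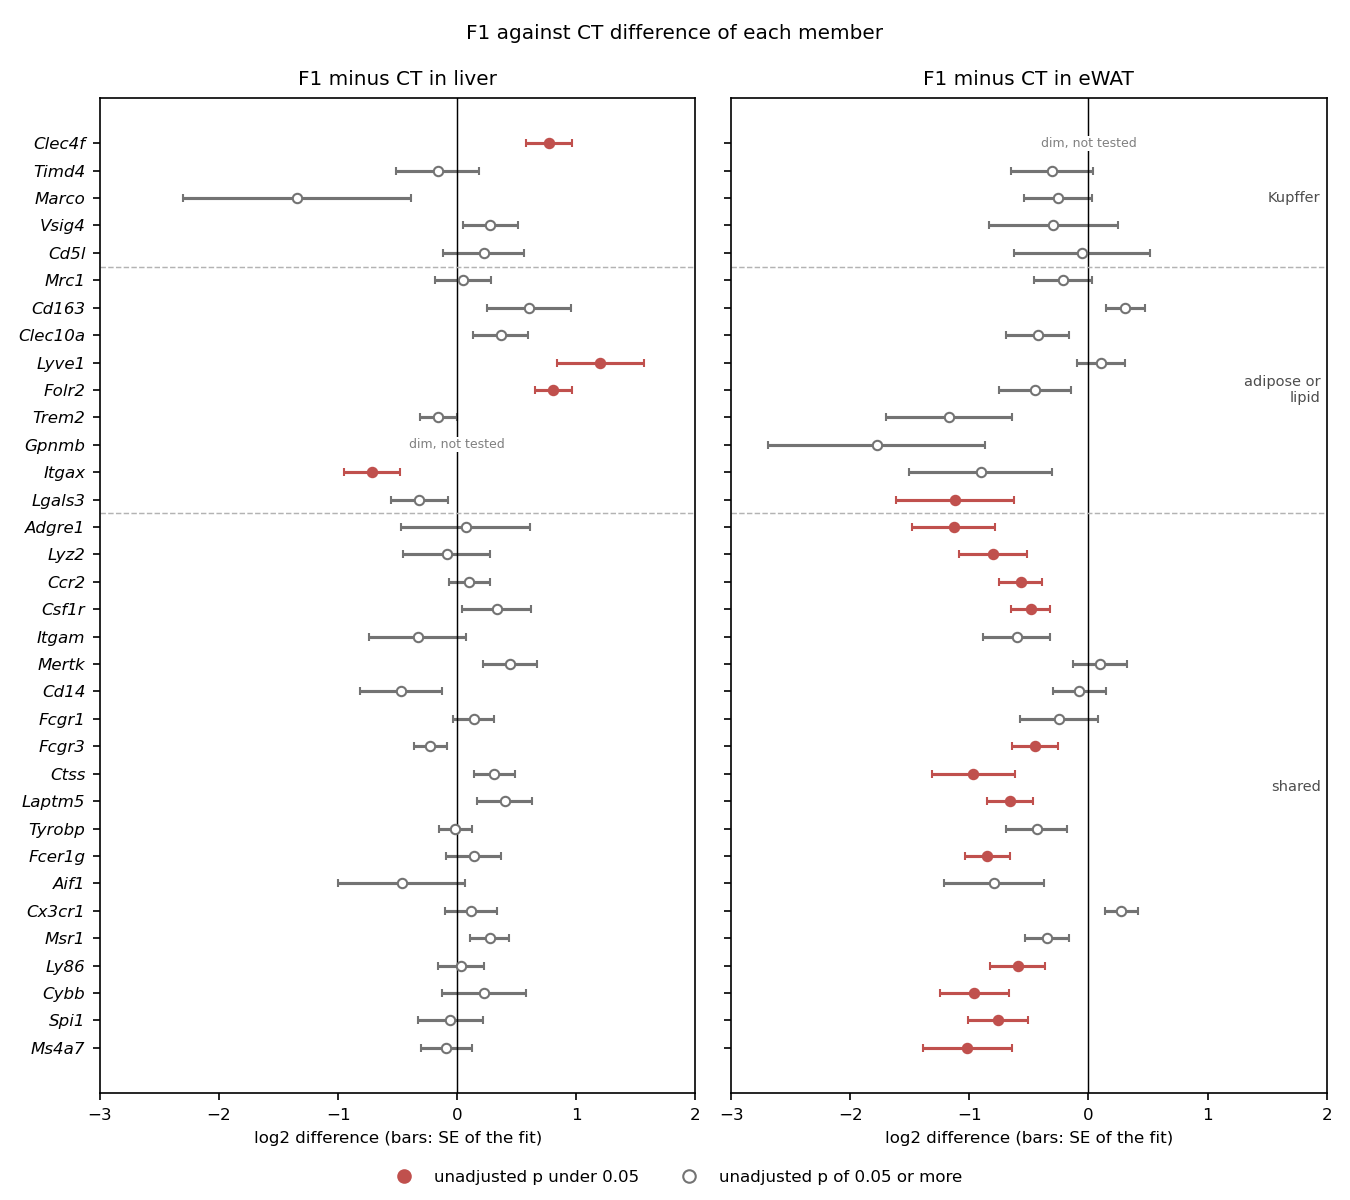
Difference F1 minus CT in log2 units with the SE of the fit for each member, liver on the left and eWAT on the right, members ordered as Kupffer-associated, adipose resident or lipid-associated, and shared. Filled points have an unadjusted p under 0.05, which holds for 4 members in liver and for 13 in eWAT, and all 13 lie below 0.

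Spi1, which encodes PU.1, had 14.22, 15.09, 14.93 and 14.94 in eWAT F1, against 15.23, 15.56, 15.33 and 16.09 in eWAT CT. Every F1 library was below every CT library, and the difference was -0.76 ± 0.25 (SE), or 1.69-fold lower, and -0.39 ± 0.18 in the 6 libraries. Csf1r, which receives the growth factors CSF1 and IL-34, had 14.33, 14.62, 14.63 and 14.56 in eWAT F1, against 14.92, 15.28, 14.81 and 15.07 in eWAT CT. The Csf1r groups did not overlap either and differed by -0.49 ± 0.16. Ccr2 had 10.91, 11.13, 10.83 and 10.41 in eWAT F1, against 11.54, 11.4, 11.26 and 11.35 in eWAT CT. All F1 libraries of Ccr2 were below all CT libraries, a difference of -0.57 ± 0.18.

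Of the receptors for antibodies and their signalling chain, Fcer1g, the common gamma chain of Fc receptors, had 9.71, 10.3, 9.98 and 9.97 in eWAT F1, against 10.95, 11.05, 10.45 and 10.9 in eWAT CT. The highest F1 library was below the lowest CT library, and the difference of -0.85 ± 0.19, or 1.80-fold lower, had the smallest unadjusted p of the members, 0.00156, with an adjusted p of 0.362. Fcgr3, a low-affinity receptor for IgG, had 13.94, 14.44, 14.38 and 14.49 in eWAT F1, against 14.77, 14.58, 14.56 and 15.12 in eWAT CT. Its groups were separated by a small gap and differed by -0.45 ± 0.19, and -0.20 ± 0.16 in the 6 libraries. Tyrobp, the DAP12 adaptor that pairs with Trem2, differed by -0.44 ± 0.25, and Fcgr1, the high-affinity IgG receptor, by -0.25 ± 0.33, both with overlapping groups.

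Lysosomal and killing functions were covered by 4 members. Laptm5, a lysosomal membrane protein of blood cells, had 15.02, 15.53, 15.64 and 15.55 in eWAT F1, against 15.81, 16.35, 16.02 and 16.19 in eWAT CT. No F1 library reached a CT library, and the difference was -0.66 ± 0.19. Cybb, the catalytic subunit of the phagocyte NADPH oxidase, had 12.4, 12.67, 12.88 and 13.48 in eWAT F1, against 13.42, 13.93, 13.5 and 14.42 in eWAT CT. Only the fourth F1 library reached into the CT range, and the difference was -0.96 ± 0.29, and -0.61 ± 0.26 in the 6 libraries. Ctss, the lysosomal protease cathepsin S, had 11.99, 12.52, 12.77 and 13.31 in eWAT F1, against 13.31, 13.71, 13.04 and 14.39 in eWAT CT. F1 4 equalled CT 1 and was above CT 3, and the Ctss difference was -0.97 ± 0.35, and -0.49 ± 0.27 in the 6 libraries. Lyz2, the lysozyme of myeloid cells, had 15.49, 16.04, 16.21 and 16.44 in eWAT F1, against 16.67, 17.43, 16.29 and 17 in eWAT CT. Here F1 4 was above CT 3, and the difference was -0.80 ± 0.28.

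Of the surface markers, Adgre1 had 11.05, 11.12, 11.27 and 11.83 in eWAT F1, against 11.93, 13.16, 11.73 and 12.98 in eWAT CT. The Adgre1 groups overlapped through F1 4 and CT 3, and the difference was -1.13 ± 0.35, or 2.19-fold lower. Ms4a7, a membrane-spanning protein used as a macrophage marker, had 9.16, 8.66, 8.62 and 9.09 in eWAT F1, against 8.93, 10.57, 9.49 and 10.61 in eWAT CT. CT 2 and CT 4 stood well above all other libraries, and the difference was -1.02 ± 0.37. Ly86, the MD-1 protein that binds the receptor Cd180, had 9.51, 10.02, 9.9 and 9.64 in eWAT F1, against 10.21, 10.77, 9.83 and 10.64 in eWAT CT. Only CT 3 lay within the F1 range, and the difference was -0.60 ± 0.23. These 12 shared members and Lgals3 made up the 13, with adjusted p-values from 0.362 to 0.496.

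The lipid-associated members had some of the larger differences and a wide spread. Lgals3 had 10.72, 10.83, 11.79 and 12.52 in eWAT F1, against 12.02, 12.51, 12.03 and 13.78 in eWAT CT, a difference of -1.12 ± 0.49, and of -0.47 ± 0.41 in the 6 libraries. Gpnmb had 11.58, 12.34, 13.14 and 15.23 in eWAT F1, against 13.4, 14.27, 14.59 and 17.14 in eWAT CT. CT 4 was the highest and F1 1 the lowest library, and Gpnmb differed by -1.78 ± 0.91 with an unadjusted p of 0.0819, and by -0.52 ± 0.71 in the 6 libraries. Trem2, a lipid-sensing receptor, had 5.6, 6.42, 7.46 and 7.39 in eWAT F1, against 7.41, 7.31, 7.55 and 9.28 in eWAT CT, a difference of -1.17 ± 0.53 with an unadjusted p of 0.0542, and of -0.33 ± 0.30 in the 6 libraries. Itgax had 6.74, 7.32, 8.09 and 9.82 in eWAT F1, against 8.73, 8.46, 8.63 and 9.76 in eWAT CT. F1 4 was the highest and F1 1 the lowest of its 8 libraries, and the difference was -0.90 ± 0.60, and -0.20 ± 0.57 in the 6 libraries.

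Members of resident macrophages did not share one direction. Cd163 differed by 0.31 ± 0.16 and Lyve1 by 0.10 ± 0.20, while Mrc1 differed by -0.21 ± 0.25, Folr2 by -0.45 ± 0.30 and Clec10a, a lectin for galactose-type sugars, by -0.43 ± 0.26. None of these 5 had an unadjusted p under 0.05. In the 6 libraries Mrc1 was at -0.40 ± 0.27 and Folr2 at -0.18 ± 0.26. Mertk, with 0.10 ± 0.23, and Cx3cr1, with 0.28 ± 0.14, were the other 2 members with a higher F1 mean, and Mertk was at 0.31 ± 0.24 in the 6 libraries. The Kupffer-associated members Timd4, Marco, Vsig4 and Cd5l had lower means by 0.05 to 0.31, each with overlapping groups. In the 6 libraries Marco was at -0.11 ± 0.29, and Vsig4, at 0.28 ± 0.51, and Cd5l, at 0.61 ± 0.40, had a higher F1 mean. A fit of all eWAT libraries with the hepatocyte list median as a covariate put Vsig4 at -0.86 ± 0.43 and Cd5l at -0.68 ± 0.43. It put Marco at -0.07 ± 0.30 and Timd4 at 0.026 ± 0.30. The remaining shared members were Itgam with -0.60 ± 0.28, Aif1 with -0.79 ± 0.42, Msr1 with -0.35 ± 0.18 and Cd14, a co-receptor for bacterial lipopolysaccharide, with -0.08 ± 0.23. In the 6 libraries Itgam was at -0.20 ± 0.19 and Cd14 at 0.04 ± 0.26.

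**Figure D4:**
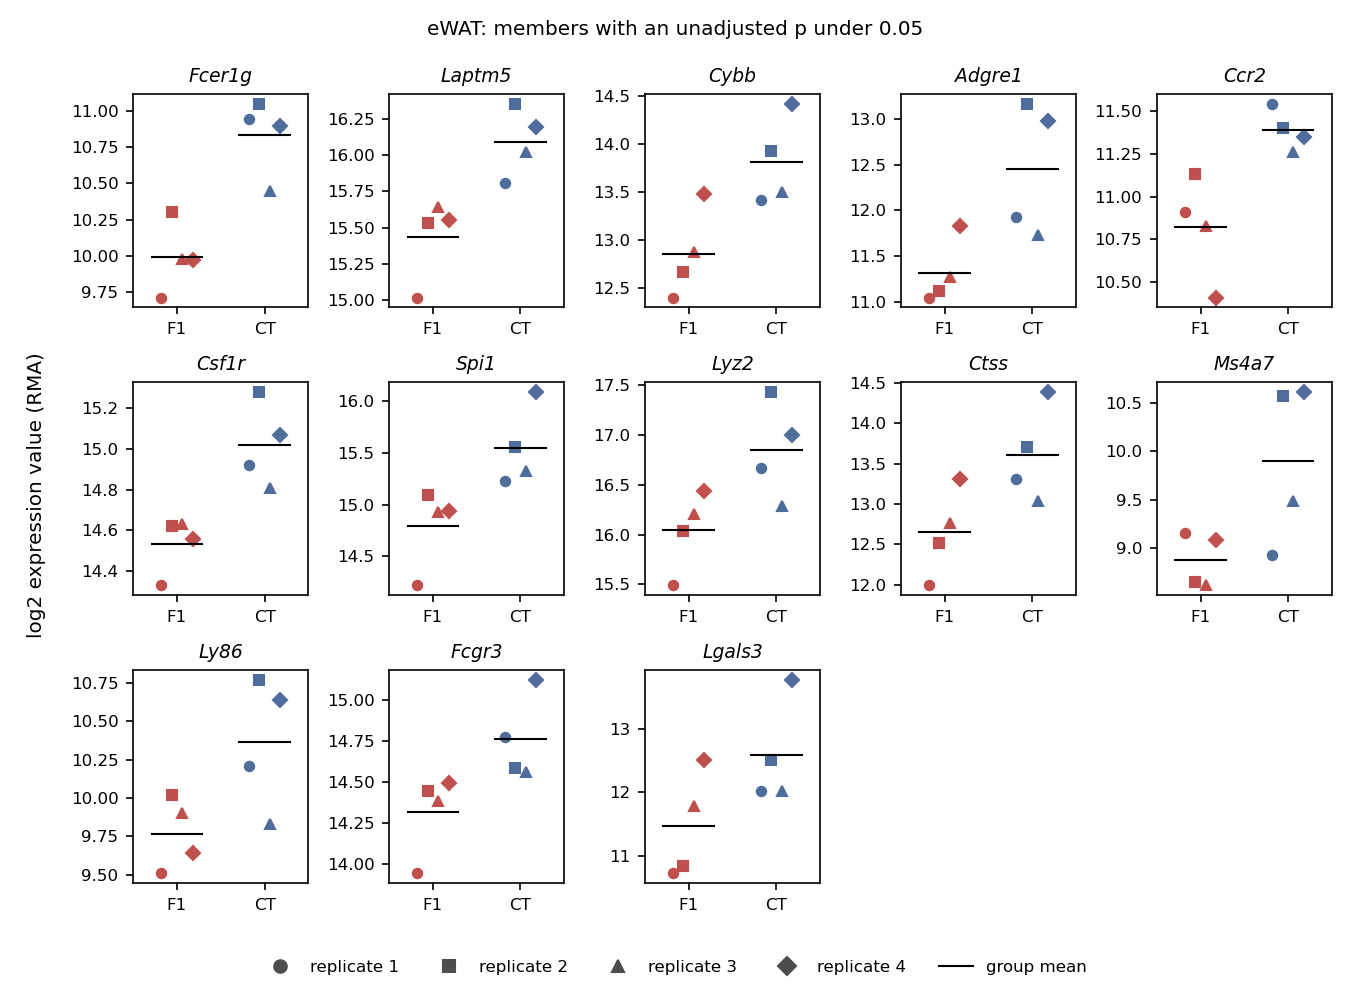
Log2 expression values per library in eWAT, F1 left of CT, for the 13 members with an unadjusted p under 0.05, with symbols for the replicate number and a line at the group mean. F1 means are lower in all 13, and in 6 of them no F1 library reaches a CT library.

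A pair of eWAT libraries carried transcripts of the male reproductive tract and held many extremes of the members. eWAT F1 1 held the lowest eWAT value in 21 of 34 members, and it read 16.22 for Svs2 and 14.51 for Svs5, which encode seminal vesicle proteins, against 2.31 to 4.88 in the other eWAT libraries. eWAT CT 4 held the highest eWAT value in 12 of 34 members, and it read 11.56 for Prm1 and 11.4 for Prm2, the protamines of sperm cells, against 2.47 to 4.72 elsewhere in eWAT. eWAT CT 2 held the highest value in 14. These 4 genes were chosen after their values had been seen. Without eWAT F1 1 and eWAT CT 4, Ccr2, Fcer1g and Laptm5 were the members that were lower at an unadjusted p under 0.05, 3 in place of 13, against 4.42% of all genes. In that fit 26 of 33 members had a lower F1 mean (51.9% of all genes) with a median of -0.39, and Fcer1g differed by -0.73 ± 0.22 (SE). Leaving out eWAT F1 1 alone or eWAT CT 4 alone gave 9 members each.

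The members were also summed per library before the log was taken, so the brightest members weigh most in the sum. The log2 of the summed level of all 34 members was 17.51 to 18.32 in eWAT F1, against 18.34 to 19.20 in eWAT CT, so the ranges did not overlap. The gap was small, from 18.32 in eWAT F1 4 to 18.34 in eWAT CT 3. The outer ends were eWAT F1 1 and eWAT CT 4, which carried transcripts of the male reproductive tract. For the shared members the log2 of the summed level was 17.26 to 17.95 in F1, against 18.09 to 18.72 in CT. For the adipose group it was 14.86 to 16.13 in F1, against 15.49 to 17.48 in CT, and these ranges overlapped. The median level of the members overlapped between the groups, with 10.07 to 10.90 in F1, against 10.66 to 11.23 in CT over all 34 members, and 10.59 to 11.05 in F1, against 10.94 to 11.30 in CT over the shared members. A fit with the hepatocyte list median as a covariate gave 13 members lower at an unadjusted p under 0.05 (4.96% of all genes) and 26 with a lower mean (48.6%), with a median of -0.54, and in that fit Gpnmb and Trem2 were among the 13 while Lyz2 and Ly86 were not.

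PU.1 binds DNA at a purine-rich core, and the promoters of members that were lower in eWAT were searched for it. The promoters, from 250 bases before to 50 after the start, came from RefSeq on build GRCm38.p6, which held an entry for 26 of the 34 members. The letters GAGGAA, on either strand, were found in 13 of these 26 (50%), in 5 of 10 of the lower members with an entry (50%), in 3 of 5 Kupffer-associated members (60%), and in 31.3% of all 27025 genes with an entry. A match is a description and not a binding site. Promoters of Laptm5, Cybb, Ctss and Fcgr3, which were lower in eWAT, are shown with the matched letters in capitals (TTCCTC is GAGGAA on the other strand), beside Fcer1g, a lower member without a match. Of the Kupffer-associated members Vsig4, which holds the letters, and Clec4f, which does not, are shown.
Laptm5 (chr4:130913066-130913365, plus strand): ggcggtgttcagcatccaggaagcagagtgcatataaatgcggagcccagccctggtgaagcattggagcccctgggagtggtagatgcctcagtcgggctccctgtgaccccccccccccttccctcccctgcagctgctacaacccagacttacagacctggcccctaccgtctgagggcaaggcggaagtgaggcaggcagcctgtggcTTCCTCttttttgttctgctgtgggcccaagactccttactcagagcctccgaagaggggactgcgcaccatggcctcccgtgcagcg
Cybb (chrX:9469275-9469574, minus strand): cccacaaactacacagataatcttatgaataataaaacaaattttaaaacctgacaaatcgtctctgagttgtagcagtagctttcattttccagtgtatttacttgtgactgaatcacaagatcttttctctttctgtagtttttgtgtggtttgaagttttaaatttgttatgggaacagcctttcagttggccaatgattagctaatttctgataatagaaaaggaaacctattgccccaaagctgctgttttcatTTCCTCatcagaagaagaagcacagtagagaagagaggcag
Ctss (chr3:95526536-95526835, plus strand): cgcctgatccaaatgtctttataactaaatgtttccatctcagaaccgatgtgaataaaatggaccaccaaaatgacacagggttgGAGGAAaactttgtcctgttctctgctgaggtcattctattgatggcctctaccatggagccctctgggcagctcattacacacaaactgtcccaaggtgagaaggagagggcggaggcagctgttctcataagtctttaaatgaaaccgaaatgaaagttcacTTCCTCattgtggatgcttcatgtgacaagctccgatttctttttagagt
Fcgr3 (chr1:171059354-171059653, minus strand): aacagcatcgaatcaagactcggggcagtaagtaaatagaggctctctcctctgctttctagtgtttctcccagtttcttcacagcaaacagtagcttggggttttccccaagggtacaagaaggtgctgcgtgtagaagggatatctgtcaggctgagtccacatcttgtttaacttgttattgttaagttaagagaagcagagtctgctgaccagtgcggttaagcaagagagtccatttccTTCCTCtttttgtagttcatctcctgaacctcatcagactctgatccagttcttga
Fcer1g (chr1:171234300-171234599, minus strand): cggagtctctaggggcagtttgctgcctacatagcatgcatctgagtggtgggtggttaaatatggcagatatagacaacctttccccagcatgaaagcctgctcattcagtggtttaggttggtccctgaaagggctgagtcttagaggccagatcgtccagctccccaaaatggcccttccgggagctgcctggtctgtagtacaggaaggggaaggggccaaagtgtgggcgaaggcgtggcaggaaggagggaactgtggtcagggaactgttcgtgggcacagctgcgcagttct
Vsig4 (chrX:96293389-96293688, minus strand): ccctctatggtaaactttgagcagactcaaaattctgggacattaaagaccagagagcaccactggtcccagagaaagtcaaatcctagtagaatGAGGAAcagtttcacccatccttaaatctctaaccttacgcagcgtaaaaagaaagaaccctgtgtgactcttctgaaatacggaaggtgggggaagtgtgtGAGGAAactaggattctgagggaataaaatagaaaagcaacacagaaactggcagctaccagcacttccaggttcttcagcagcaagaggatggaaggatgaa
Clec4f (chr6:83656067-83656366, minus strand): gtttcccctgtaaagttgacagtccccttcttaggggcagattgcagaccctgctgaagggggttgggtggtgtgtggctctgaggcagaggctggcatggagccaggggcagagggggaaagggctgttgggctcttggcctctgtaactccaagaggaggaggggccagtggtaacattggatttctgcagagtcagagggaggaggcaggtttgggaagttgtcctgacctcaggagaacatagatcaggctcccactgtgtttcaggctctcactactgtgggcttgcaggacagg
The match lay 38 bases before the start in Laptm5, 6 before it in the Fcgr3 entry shown and 9 after it in Cybb. In another Fcgr3 entry, with a different start, the match lay 15 bases before the start. Ctss held one match 164 bases before the start and another at the start itself. Vsig4 held matches 155 and 53 bases before it.

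The F1 effect in liver was above that in eWAT for most members. By the interaction in 1 fit of 16 libraries, 31 of 34 members had a higher F1 effect in liver than in eWAT (49.5% of all genes), and Marco, Cd14 and Cx3cr1 a lower one (50.3%). Gpnmb in liver and Clec4f in eWAT were dim, and of the 32 members that reached the 25th percentile in both tissues 29 had a higher effect in liver (49.1% of 13420 genes). At an unadjusted p under 0.05 there were 10 members higher (4.93% of all genes) and 0 lower (4.97%), and limma called 0 of 34, where it called 0.0478% of 14657 genes higher and 0.0341% lower. Folr2 had the smallest p, with a difference of effects of 1.26 ± 0.35 (SE), an unadjusted p of 0.0024 and an adjusted p of 0.231. The other 9 were Ctss, with 1.28 ± 0.40, Laptm5, with 1.06 ± 0.31, and Fcer1g, Ccr2, Lyve1, Msr1, Cybb, Csf1r and Clec10a, with 0.62 to 1.19. Without liver CT 1 or without liver CT 3 there were 6 such members, without eWAT F1 1 or eWAT CT 4 there were 8, and without liver CT 2 there were 12. Without the 4 libraries that stood apart there were 8 members (4.38% of all genes), Folr2, Adgre1, Csf1r, Laptm5, Fcer1g, Msr1, Cybb and Ms4a7, and Ctss was at 0.63 ± 0.34.

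Msr1 and Clec10a were among the 10 although neither tissue alone put them under 0.05. Msr1 had 9.05, 8.96, 9.15 and 8.66 in liver F1, against 8.44, 8.66, 8.87 and 8.76 in liver CT. In eWAT it had 8.03, 7.73, 7.82 and 7.38 in eWAT F1, against 7.97, 7.99, 8.01 and 8.38 in eWAT CT. F1 was higher by 0.27 ± 0.17 in liver and differed by -0.35 ± 0.18 in eWAT, with overlap in both. Clec10a had 4.48, 4.46, 5.06 and 4.42 in liver F1, against 4.23, 3.83, 4.11 and 4.79 in liver CT. In eWAT Clec10a had 10.25, 11.01, 10.97 and 10.52 in eWAT F1, against 11.43, 11.51, 10.95 and 10.56 in eWAT CT. Its F1 mean was higher in liver and lower in eWAT, with overlapping groups in both. For Lyve1 the eWAT libraries had 12.66, 12.97, 13.3 and 13.21 in eWAT F1, against 13.18, 13.15, 12.71 and 12.69 in eWAT CT, which overlapped, and Folr2 had 9.88, 11.26, 11 and 10.73 in eWAT F1, against 11.34, 11.49, 10.7 and 11.13 in eWAT CT, with F1 1 the lowest.

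Other macrophage genes in eWAT were read from lists that the members do not hold. Of all genes tested in eWAT, 50.2% had a lower mean in F1 and 49.4% a higher one. At an unadjusted p under 0.05, 5.02% of all genes were lower and 4.97% higher. Of 31 effector genes, 28 had a lower mean in F1, 9 at an unadjusted p under 0.05, with a median of -0.40. Those with the smallest p were Lcp1, an actin-bundling protein of leukocytes, with -0.89 ± 0.24, Sirpa, the receptor for the signal CD47, with -0.73 ± 0.23, Cyba, the partner of Cybb in the NADPH oxidase, with -0.79 ± 0.26, and Lipa, the lysosomal acid lipase, with -1.07 ± 0.37. Of 19 chemokines and cytokines tested, 13 were lower and 6 higher, 4 lower at that threshold, led by Ccl3, with -0.94 ± 0.28, and Ccl2, the ligand of Ccr2, with -0.85 ± 0.28. Of 17 regulators, 10 were lower and 6 higher. The transcription factor Runx1 had the smallest p among them, with -1.12 ± 0.20, while Nr1h3, the liver X receptor alpha, was higher by 0.48 ± 0.16. Of 11 dendritic and antigen presentation genes, 10 were lower, led by Ciita, the activator of MHC class II genes, with -0.88 ± 0.19. None of these genes passed the adjusted test. These lists were fitted with all eWAT libraries and not without eWAT F1 1 and eWAT CT 4. The effector list median was lowest in eWAT F1 1, at 10.22, and highest in eWAT CT 4, at 12.05. It was 11.08 to 11.55 in the other F1 libraries, against 11.33 to 11.47 in the other CT libraries.

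Lists of other cells were read in eWAT in the same way, beside the same 50.2% of all genes lower and 49.4% higher. The share lower at an unadjusted p under 0.05 was 5.02%, and the share higher 4.97%. Of 13 T, B and NK cell genes 5 were lower and 8 higher, and of 7 neutrophil genes 3 were lower and 4 higher. All 12 hepatocyte genes were higher in eWAT F1, by a median of 1.99, and Cyp2e1, an oxidising enzyme, was the one at an unadjusted p under 0.05. Of 11 adipocyte genes 2 were lower and 9 higher, with a median of 0.12. Of 8 skeletal muscle genes 6 were lower, 3 at an unadjusted p under 0.05, with a median of -0.69. Of 12 genes of stellate cells and fibroblasts 9 were lower, with a median of -0.16, and of 11 endothelial genes 7 were lower, with a median of -0.18. Of 5 mast cell genes 2 were lower and 3 higher, of 7 mesothelial genes 3 and 4, of 9 male tract genes 3 and 6, and of 7 exocrine pancreas genes 3 and 4. Apart from the fits given above with the hepatocyte covariate and without eWAT F1 1 and eWAT CT 4, the part of these other cells was not tested. In liver, the same macrophage lists had medians of 0.07 for effector genes, 0.24 for chemokines and cytokines and 0.00 for regulators, and Ccl9, a chemokine of myeloid cells, was higher by 0.88 ± 0.21 (SE) with an adjusted p of 0.217.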

How the data were processed

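RNA from frozen liver and eWAT, 16 samples in all, was read on Affymetrix mouse arrays. Per the submitters' processing notes, the authors used Transcriptome Analysis Console 4.0 and the RMA method, which normalizes arrays and summarises probe sets, and deposited the log2 values. The table held 22206 probe sets, of which 19572 had 1 symbol and 2634 had none or several. The brightest was kept for each of 19505 symbols. The authors' genome build is not given in the sources used here.

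Groups were compared with limma 3.58.1 in R 4.3.3 (lmFit, eBayes) over all genes whose mean reached the 25th percentile of probe-set values in the compared libraries. P-values were adjusted by Benjamini-Hochberg over these genes, and 0.05 was the threshold for a call. The limma fit was tested on simulated data. The members, groups and lists were chosen with earlier results of these data known. Values per library are given for Kupffer-associated members and for those with an unadjusted p under 0.05 in either tissue or in the interaction, and other lists by up to 4 genes of smallest p. Precision is limited by the 4 arrays per group.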

Additional observations from a re-analysis of the deposited data

Results flagged for a closer look

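Within each group of 4 libraries, a value was listed when its gap to the nearest other library was large for the group's range. This was met by 18 of 212 sets, 13 of 136 member sets and 5 of 76 list sets, and chance gives about 1 in 20. Liver CT 2 was the highest of its group for Marco at 10.76, Adgre1 at 10.94, Csf1r at 12.8 and Laptm5 at 11.99, and also for the median of the macrophage effector list at 9.47. Its hepatocyte list median of 19.9 was listed too, but 5 of the 12 genes were within 0.1 of the array's top value of 19.93 in every liver library, so this order carries no level. Liver F1 3 was the highest for Cd5l at 12.56, Clec10a at 5.06 and Mertk at 10.3. Liver F1 1 was the lowest for Cd163 at 9, and liver CT 1 the lowest for Mertk at 8.85. In eWAT, CT 4 was the highest for Trem2 at 9.28 and Msr1 at 8.38. Fcgr1 was lowest in eWAT CT 3 at 6.34, and Aif1 was lowest in eWAT F1 4 at 6.86. The exocrine pancreas list had a median of 11.8 in liver F1 4, and the male tract list had medians of 3.65 in liver F1 2, the lowest of its group, and 3.91 in liver CT 1, the highest of its group.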

How the results depend on the processing

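With 4 arrays per group, no member was called between F1 and CT in either tissue under any alternative run. Leaving out each library in turn gave 3 to 7 members higher, 1 lower and 8 to 15 with a lower mean in liver, and 9 to 15 lower and 26 to 29 with a lower mean in eWAT. For the interaction it gave 6 to 13 higher and 3 to 6 with a lower mean. Members lower in liver at an unadjusted p under 0.05 were 0 with the 50th percentile filter and 0 in one fit of 16 libraries. In eWAT 1, Clec4f, was higher with no filter and 3 were lower without eWAT F1 1 and eWAT CT 4. Settings that leave out several libraries, the covariate and the filter in both tissues were chosen after seeing the data. In liver 7 were higher without liver F1 4 and liver CT 2. The interaction had 1 member with a lower mean under the 50th percentile filter and 5 without the 4 libraries that stood apart. Same-numbered samples had correlations of their deviations from -0.308 to 0.215 between F1 and CT, and from 0.00993 to 0.0516 between liver and eWAT, where 6 of 8 matched their own number best, a hint from the data and not from the design. With the replicate number as a block, 3 members were higher and 1 lower in liver, 15 were lower in eWAT and 11 higher in the interaction, no call between F1 and CT changed, and the tissue comparison called 32 members in F1 and 34 in CT offspring. Counts for the block, and most counts with a single library left out, are given without the share of all genes. They show how far the counts moved and do not set the members against the array. Some single differences turned sign, and the cause was not tested. In eWAT, Cd5l was 0.13 with array weights and 0.61 without eWAT F1 1 and eWAT CT 4, Vsig4 was 0.28 in that last fit, and Timd4 was 0.026 with the hepatocyte covariate. Without liver F1 4 and liver CT 2, the liver differences were 0.25 for Timd4, 0.05 for Marco, 0.36 for Lyz2, -0.0033 for Ccr2, -0.043 for Ly86, 0.11 for Spi1 and 0.17 for Ms4a7. The interaction of Itgax was -0.30 after quantile normalization, and without the 4 libraries it was -0.55 for Itgax, 0.16 for Marco and -0.097 for Fcgr3. Leaving out one library at a time, the ranges in liver were -0.17 to 0.71 for Adgre1, -0.039 to 0.54 for Cybb, -0.071 to 0.29 for Fcer1g, -0.067 to 0.16 for Ly86, -0.30 to 0.28 for Lyz2, -0.21 to 0.054 for Ms4a7, -0.25 to 0.18 for Spi1 and -0.34 to 0.20 for Timd4. In eWAT they were -0.34 to 0.54 for Cd5l and -0.79 to 0.14 for Vsig4. For the interaction they were -0.32 to 0.63 for Cd5l, -0.015 to 0.33 for Clec4f, -0.23 to 0.79 for Itgax, -1.57 to 0.10 for Marco and -0.15 to 0.51 for Timd4. Liver against eWAT kept 32 to 34 members called in F1 and 31 to 33 in CT offspring when one library was left out.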

Other observations

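Cxcl13, a chemokine that draws B cells, was looked at after its values had been seen. It had 7.14, 7.97, 7.39 and 7.23 in liver F1, against 7.5, 12.2, 7.5 and 8.72 in liver CT. In eWAT Cxcl13 had 10.49, 10.61, 9.79 and 10.2 in F1, against 8.13, 13.59, 9.23 and 9.27 in CT. The library numbered CT 2 was the highest in both tissues. The labels do not say that equal numbers in liver and eWAT mark 1 animal. Irak3, an inhibitor of Toll-like receptor signalling, had 9.31 in liver CT 2 and 5.95 to 6.74 in the other liver libraries. Itgal, an integrin subunit of leukocytes, had 9.02 in liver CT 2 and 6.57 to 7.53 in the other liver libraries. In eWAT, CT 2 was not the highest for either gene. It had 12.66 for Irak3, against 12.18 to 12.94 elsewhere in eWAT, and 6.28 for Itgal, against 5.34 to 6.5.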
